A study of Mus musculus with 10 samples.

Results

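The Ly6 surface antigens were followed in tumors of B16OVA, mouse melanoma cells engineered to make ovalbumin, through 8 listed genes: Ly6a, Ly6c1, Ly6c2, Ly6d, Ly6e, Ly6f, Ly6i and Ly6k. Members were chosen by gene symbol in the platform annotation, which named 7 of the 8 among the 19176 named genes with a tested probe set. The annotation given here lists no gene for the Ly6a probe set, whose name was taken from a supplementary table of the study. Ly6a is therefore described in full but counted apart. Each member had 1 probe set, and all 8 passed the filter on low values. BO-112, a nanoplex of the synthetic double-stranded RNA Poly I:C and polyethylenimine, was injected into the tumors of 5 mice, and 5 Vehicle mice received an equal volume of 5% glucose. All mice were young adult female C57BL/6 animals with subcutaneous tumors grown from the one cell line, and the tumors were taken on the second day after the second injection. RNA of the whole tumor of each mouse was hybridized to a Clariom S Mouse array, and every level given is a log2 value after Robust Multichip Average (RMA) normalization. All differences are BO-112 minus Vehicle. In such bulk tissue more cells of a type and more RNA per cell cannot be told apart.

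Ly6 proteins are small cell surface proteins built around an LU domain, a compact fold held by disulfide bonds, and most are tied to the outer membrane by a glycosylphosphatidylinositol (GPI) anchor. Several are textbook markers in the mouse: Ly-6C, encoded by Ly6c1 and Ly6c2, marks inflammatory monocytes and also occurs on memory T cells and some endothelial cells, and Ly6a encodes Sca-1, the stem cell antigen, which activated lymphocytes and vessels also carry. A number of these genes are known to respond to interferons. The members lie in 1 cluster on chromosome 15, and close copies such as Ly6c1 and Ly6c2 are so alike that an array probe may read more than 1 of them, so the share of each copy is uncertain.

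The stretches upstream of Ly6c1, Ly6c2 and Ly6f are shown because these members of the cluster had a promoter entry in the table used here and because Ly6c1 and Ly6c2 rose while the change of Ly6f was smaller. Each line gives the 250 bases before the most upstream annotated start, 5′ to 3′ on the gene's strand, from RefSeq on GRCm38.p6. They lie at chr15:75048838-75049087 (minus strand, Ly6c1), chr15:75111972-75112221 (minus strand, Ly6c2) and chr15:75268171-75268420 (plus strand, Ly6f). Capitals mark runs of at least 10 bases that all 3 stretches hold.
Ly6c1: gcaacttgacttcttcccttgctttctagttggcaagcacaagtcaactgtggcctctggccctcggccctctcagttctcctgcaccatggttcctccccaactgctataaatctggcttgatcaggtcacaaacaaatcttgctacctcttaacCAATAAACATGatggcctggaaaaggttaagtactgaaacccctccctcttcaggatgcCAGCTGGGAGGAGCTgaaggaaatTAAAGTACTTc
Ly6c2: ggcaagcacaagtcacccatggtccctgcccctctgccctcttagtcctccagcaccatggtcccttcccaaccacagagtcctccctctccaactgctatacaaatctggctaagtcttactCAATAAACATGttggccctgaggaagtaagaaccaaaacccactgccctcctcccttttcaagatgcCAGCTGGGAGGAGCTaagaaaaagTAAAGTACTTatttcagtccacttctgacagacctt
Ly6f: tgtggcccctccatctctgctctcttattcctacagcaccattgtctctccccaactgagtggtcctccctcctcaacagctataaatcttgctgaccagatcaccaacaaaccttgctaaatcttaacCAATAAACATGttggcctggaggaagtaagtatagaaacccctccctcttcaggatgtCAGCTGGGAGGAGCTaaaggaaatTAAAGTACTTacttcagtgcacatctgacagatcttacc

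The 3 stretches shared 3 such runs, the longest of 15 bases, and 36 bases in all. In pairwise global alignment, identity over the aligned bases was 75.9% for Ly6c1 and Ly6c2, 82.5% for Ly6c1 and Ly6f and 81.2% for Ly6c2 and Ly6f. The core of the interferon-stimulated response element (GAAANNGAAA) and the gamma-activated site (TTCNNNGAA) were searched on both strands in windows of 300 bases, from 250 before to 50 after a start. Neither was found in the 5 windows of these 3 genes, while 3.44% and 8.3% of the 32851 promoters of that length held them. The letters are absent from these windows only. More distant sequence was not used here.

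The comparison asked which Ly6 genes differed between the BO-112 and the Vehicle tumors. Ly6c1, Ly6c2 and Ly6i rose in BO-112 tumors, as did the separately named Ly6a, and none fell. These are 3 of the 7 annotated members at an adjusted p under 0.05 (limma, Benjamini-Hochberg over 21792 probe sets), where 2.43% of all tested probe sets were higher and 2.79% were lower by the same rule. For Ly6e, Ly6f, Ly6d and Ly6k the test was not passed. Of the 7 annotated members, 4 had every BO-112 mouse above every Vehicle mouse (Ly6c1, Ly6c2, Ly6i and Ly6f), as 3.39% of all tested probe sets did, and Ly6a also showed no overlap.

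**Figure D1:**
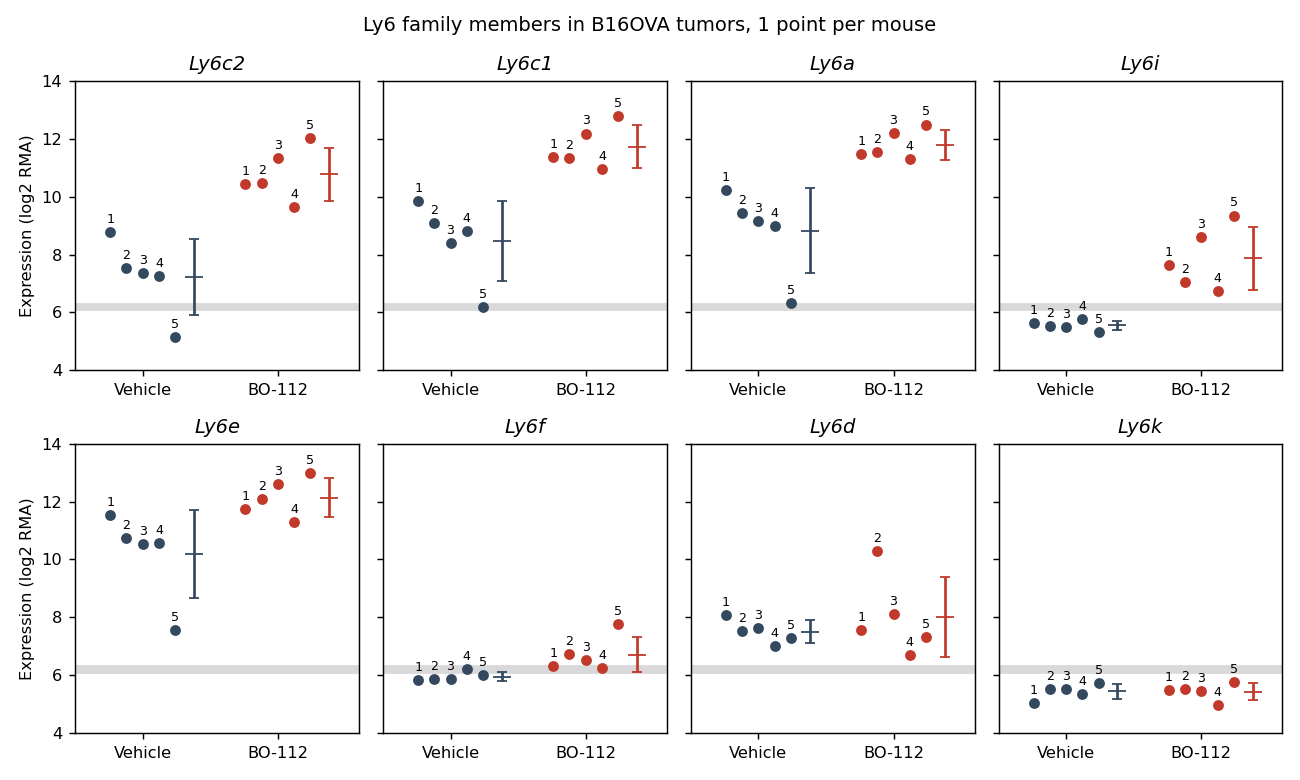
Expression of each Ly6 member (log2 RMA) in Vehicle and BO-112 tumors, with 1 numbered point per mouse, group means with SD bars and, in grey, the range over arrays of the 75th percentile of negative-control probe sets. The groups do not overlap for Ly6c2, Ly6c1, Ly6a, Ly6i and Ly6f, and Vehicle mouse 5 lies far below the other Vehicle mice for Ly6c2, Ly6c1, Ly6a and Ly6e.

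Ly6c2 had the largest estimated change among the members. Its levels in BO-112 mice 1 to 5 were 10.43, 10.47, 11.34, 9.64 and 12.02, and in Vehicle mice 1 to 5 they were 8.78, 7.54, 7.36, 7.25 and 5.14. Every BO-112 tumor was above every Vehicle tumor, by at least 0.86, and Vehicle mouse 5 was the lowest by a wide margin. The means were 10.78 ± 0.92 (SD, n = 5) and 7.21 ± 1.31 (SD, n = 5), a log2 difference of 3.57 ± 0.60 (SE, limma adjusted p = 0.0108). Of all 21792 tested probe sets, its estimated rise was number 11 in size.

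Ly6c1, the other gene of the Ly-6C antigen, followed the same order of mice at its extremes. It read 11.37, 11.34, 12.19, 10.96 and 12.80 in BO-112 mice 1 to 5 and 9.86, 9.09, 8.39, 8.81 and 6.19 in Vehicle mice 1 to 5. BO-112 mouse 5 was again highest and Vehicle mouse 5 lowest, with no overlap. The log2 difference was 3.27 ± 0.59 (SE, limma adjusted p = 0.0138), a fold of 9.62. Ly6c1 and Ly6c2 did not pass a test of unequal change: their changes differed by -0.30 on the log2 scale (Ly6c1 minus Ly6c2, exact permutation p = 0.119, adjusted p = 0.147 over 21 pairs).

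Ly6a, which encodes Sca-1, gave 11.48, 11.54, 12.21, 11.29 and 12.50 in BO-112 mice 1 to 5 and 10.24, 9.43, 9.16, 8.99 and 6.33 in Vehicle mice 1 to 5. The BO-112 tumors lay within a range of 1.21, and the Vehicle tumors within 3.91, or 1.25 without Vehicle mouse 5. The log2 difference was 2.97 ± 0.59 (SE, limma adjusted p = 0.0194), a fold of 7.86. It was lost as a call without Vehicle mouse 4 (adjusted p = 0.0521) and without BO-112 mice 2 and 5 (adjusted p = 0.0542), although the difference stayed at 3.02 and 2.83.

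Ly6i, known in the mouse from monocytes and macrophages, was dim in every Vehicle tumor. Its levels were 7.64, 7.03, 8.59, 6.74 and 9.35 in BO-112 mice 1 to 5 and 5.64, 5.54, 5.51, 5.77 and 5.34 in Vehicle mice 1 to 5. All BO-112 arrays and none of the Vehicle arrays exceeded the 75th percentile of their negative-control probe sets, which lay between 6.07 and 6.30. The measured log2 difference was 2.31 ± 0.42 (SE, limma adjusted p = 0.0137). With each Vehicle value set to that control level, the mean of Ly6i was 3.20-fold higher in BO-112 tumors. Folds set against the control level do not allow for the spread between mice.

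Ly6e, a widely expressed member that restricts entry of coronaviruses, was bright in nearly every tumor. It read 11.74, 12.10, 12.60, 11.28 and 12.97 in BO-112 mice 1 to 5 and 11.53, 10.75, 10.53, 10.56 and 7.57 in Vehicle mice 1 to 5. The groups overlapped, since Vehicle mouse 1 exceeded BO-112 mouse 4. The log2 difference was 1.95 ± 0.63 (SE, limma adjusted p = 0.0878) and became 1.30 (adjusted p = 0.0844) without Vehicle mouse 5. Taken singly, outside the correction over all probe sets, Ly6e had an exact permutation p of 0.0159.

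Ly6f read 6.31, 6.73, 6.51, 6.24 and 7.76 in BO-112 mice 1 to 5 and 5.82, 5.87, 5.87, 6.20 and 5.99 in Vehicle mice 1 to 5. All BO-112 arrays were above the negative-control level, no Vehicle array was, and the groups were 0.04 apart at their closest. The log2 difference was 0.76 ± 0.25 (SE, limma adjusted p = 0.0923), or a fold of 1.43 with Vehicle values set to the control level. The estimate rested in part on BO-112 mouse 5: it was 0.50 without that mouse (adjusted p = 0.054) and 0.40 without BO-112 mice 2 and 5 (adjusted p = 0.0883). Without BO-112 mouse 4 it was 0.88 and passed the test (adjusted p = 0.0419).

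Ly6d, which marks B-lineage-fated lymphoid progenitors and is also made by keratinocytes, had 1 tumor far above the rest. It read 7.57, 10.29, 8.12, 6.70 and 7.31 in BO-112 mice 1 to 5 and 8.08, 7.52, 7.63, 7.01 and 7.28 in Vehicle mice 1 to 5. Apart from BO-112 mouse 2, the values of both groups were interleaved. The log2 difference of 0.49 ± 0.54 (SE, limma adjusted p = 0.603) turned to -0.081 without that mouse (adjusted p = 0.901).

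Ly6k, known in the mouse for its part in sperm migration, did not exceed the negative-control level on any array. Its values lay between 4.95 and 5.76 in BO-112 tumors and between 5.04 and 5.71 in Vehicle tumors. With both groups at that level no fold is given.

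**Figure D2:**
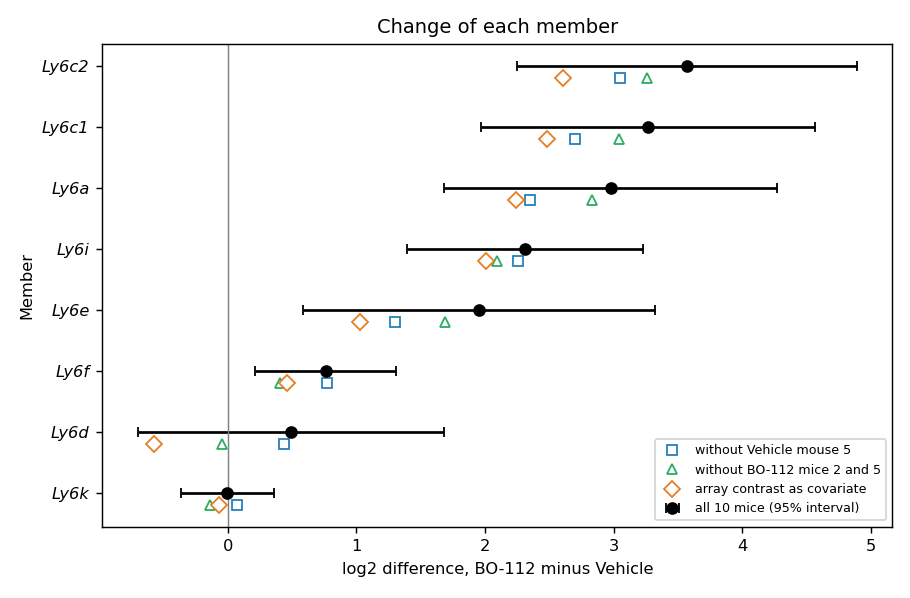
Change of each Ly6 member (log2 difference, BO-112 minus Vehicle) with its 95% interval from limma over all 10 mice, and the estimate without Vehicle mouse 5, without BO-112 mice 2 and 5 and after adjustment for array contrast. The intervals of Ly6c2 (2.25 to 4.89), Ly6c1, Ly6a and Ly6i lie well above 0, and all other estimates for these members stay above 2.

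The array contrast, how often a positive control was brighter than a negative control on the same array, moved with the groups: it lay between 0.845 and 0.883 in BO-112 and between 0.867 and 0.891 in Vehicle tumors. After adjustment for it the log2 differences of Ly6c2, Ly6c1, Ly6a and Ly6i were 2.60, 2.48, 2.24 and 2.01, and none of the 4 was called (limma adjusted p between 0.181 and 0.297). That fit called 27 of 21792 probe sets, against 1138 without the adjustment. The part of array contrast in the result was not tested further.

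Changes were then compared between members, mouse by mouse, by a two-sided exact permutation test whose smallest possible p is 0.00794. Of the 21 pairs of annotated members, 11 differed at an adjusted p under 0.05, and with Ly6a 14 of 28 did. Ly6c1 and Ly6c2 each changed more than Ly6e, by 1.31 and 1.62 on the log2 scale (both exact permutation adjusted p = 0.0208). These genes were above the control level on every array, except Ly6c2 in Vehicle mouse 5. Both also changed more than Ly6f and Ly6k, and Ly6c2 more than Ly6d by 3.07 (exact permutation adjusted p = 0.0455). Ly6i changed more than Ly6f (Ly6f minus Ly6i, -1.55) and more than Ly6k (by 2.31), and Ly6e and Ly6f each changed more than Ly6k. Ly6a changed more than Ly6e by 1.02 (exact permutation adjusted p = 0.0202 over 28 pairs). No difference was shown between Ly6i and Ly6c1, Ly6c2 or Ly6e, where the adjusted p lay between 0.0641 and 0.675. Differences that involve Ly6i, Ly6f or Ly6k rest on values at the control level, and without Vehicle mouse 5 the number of differing pairs was 7.

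The BO-112 mice kept similar extremes across members, and the Vehicle mice did so for part of the members. BO-112 mouse 4 was the lowest of its group for all 8 members and BO-112 mouse 5 the highest for 7, the exception being Ly6d. Vehicle mouse 5 was the lowest of its group for 5 members. Its log2 difference from the mean of the other Vehicle mice was -2.59 for Ly6c2, -2.85 for Ly6c1, -3.12 for Ly6a and -3.27 for Ly6e. For Ly6i it was -0.28, but Ly6i exceeded the control level on no Vehicle array, so a larger gap could not have been seen. Vehicle mouse 1 was the highest Vehicle tumor for Ly6c2, Ly6c1, Ly6a, Ly6e and Ly6d but the lowest for Ly6f and Ly6k. Vehicle mouse 5 was the highest for Ly6k. Neither Ly6f nor Ly6k exceeded the control level on any Vehicle array.

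**Figure D3:**
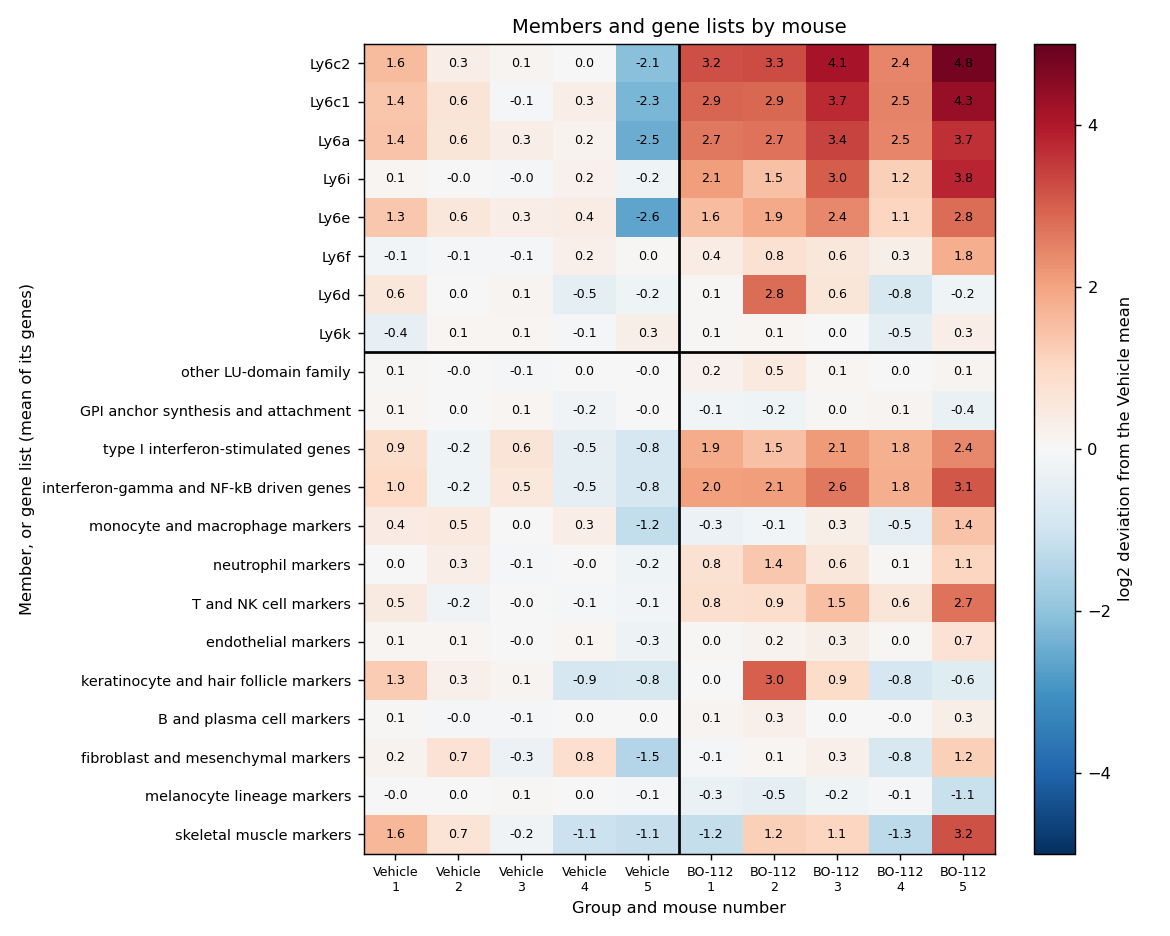
Log2 deviation from the Vehicle mean in each tumor (columns, by group and mouse) for each Ly6 member and for the mean of each gene list (rows). BO-112 mouse 5 holds the highest deviation of Ly6c2 (4.8) and of Ly6c1 (4.3), and BO-112 mouse 2 stands out for Ly6d (2.8) and for the keratinocyte list (3.0).

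Lists of genes driven by interferons or by NF-kB moved in the same tumors. Of 48 type I interferon-stimulated genes, 40 rose and none fell (limma), with a median log2 difference of 1.92 beside 0.01 over all tested probe sets. By the same rule 2.43% of all tested probe sets rose and 2.79% fell. Mx1, an antiviral GTPase, rose by 3.43 ± 0.49 (SE, adjusted p = 0.00592), Irf7, an interferon-amplifying transcription factor, by 3.23 ± 0.51 (SE, adjusted p = 0.00893), and Rsad2, which encodes viperin, by 3.20 ± 0.41 (SE, adjusted p = 0.00365) in limma. Of 25 genes driven by interferon-gamma or by NF-kB, 16 rose and none fell, with a median of 2.38. This list holds genes of both kinds, and its count does not tell them apart. Acod1, the itaconate-producing enzyme, rose by 4.55, and the T cell attracting chemokine gene Ccl5 by 4.50. Cxcl11, a ligand of the receptor CXCR3, was above the control level on no Vehicle array. With Vehicle values set to that level its mean was 9.92-fold higher. Among 10 leave-one-out fits the counts of risen genes lay between 26 and 44 for the first list and between 8 and 18 for the second. With array contrast as a covariate, 2 and 3 genes passed. The mean level of the type I list was highest in BO-112 mouse 5 (10.24) and lowest in Vehicle mouse 5 (6.98), as was that of the second list. Of the treated tumors, BO-112 mouse 2 was lowest for the type I list (9.28) and BO-112 mouse 4 for the second (9.07).

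Genes with the most similar pattern were sought by the smallest root mean square difference of log2 deviations over the 10 arrays, among 19176 other named genes. The nearest to Ly6a were Gvin1, which encodes a very large interferon-inducible GTPase, at 0.19, Ly6c1 at 0.30 and Ifi211, a PYHIN family gene, at 0.31. The nearest to Ly6c1 were Gvin1 at 0.24, Ly6a at 0.30 and Ly6c2 at 0.31. Ly6c2 had Ly6c1 (0.31) and the PYHIN genes Ifi213 (0.31) and Ifi208 (0.37) nearest. The nearest to Ly6i were Nos2, the inducible nitric oxide synthase, at 0.25, Tnfaip3, a feedback inhibitor of NF-kB, at 0.35 and Phf11a at 0.37. Its nearest member, Ly6e, was in place 274 at 0.99. Ly6i exceeded the control level on no Vehicle array, and Nos2 did so on 5 of the 10 arrays. The Vehicle values of Ly6a, Ly6c1 and Ly6c2 spanned 3.91, 3.67 and 3.64. The places of Ly6i therefore rest in part on values at the control level. These likenesses are a description of 10 tumors and carry no test.

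Markers of the cell types that carry Ly6 antigens were read beside the members. Of 18 monocyte and macrophage markers, 1 rose and 1 fell, with a median log2 difference of 0.14. Plac8 rose by 2.75 ± 0.68 (SE, limma adjusted p = 0.0427), and Mrc1, the mannose receptor of resident-like macrophages, fell by 2.79 (SE 0.48, limma adjusted p = 0.0112). Ccr2, the receptor that brings inflammatory monocytes into tissue, differed by 0.13 ± 0.55 (SE, limma adjusted p = 0.906, named after its value was seen). It was above the control level on 7 arrays and read 4.744 in Vehicle mouse 5, against 6.685 or more in the other Vehicle mice. Markers that did not pass went both ways, such as Fcgr1 (1.32) and F13a1 (-1.01), also named after their values were seen. In this list 1 marker was above the control level on no array. In leave-one-out fits between 0 and 2 markers of the list rose. The mean level of the list ranged from 6.97 to 8.84 in BO-112 and from 6.19 to 7.91 in Vehicle tumors, with BO-112 mouse 5 at the top, BO-112 mouse 4 lowest of its group and Vehicle mouse 5 lowest of all. The part of monocyte content in the Ly6 changes was not tested.

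Of 20 T and NK cell markers, 7 rose and none fell, with a median of 1.21. By the same rule 2.43% of all tested probe sets rose and 2.79% fell. Gzmb, the cytotoxic granule protease granzyme B, rose by 2.95 ± 0.54 (SE, limma adjusted p = 0.0143) and the coreceptor gene Cd8a by 2.43 ± 0.49 (SE, limma adjusted p = 0.0202). Gzma, which encodes granzyme A, was above the control level on 4 BO-112 arrays and on no Vehicle array (limma adjusted p = 0.0466). With Vehicle values set to that level its mean was 3.48-fold higher. The list's mean level lay between 6.16 and 8.24 in BO-112 and between 5.36 and 6.01 in Vehicle tumors. The groups did not overlap, but no background share was taken for list means. In this list 1 marker was above the control level on no array. BO-112 mouse 5 was the highest and BO-112 mouse 4 the lowest of the treated tumors here too. Without Vehicle mouse 2 the number of risen markers was 2, without BO-112 mouse 4 it was 11, and after adjustment for array contrast it was 0. These fits called 347, 3134 and 27 probe sets in both directions together, against 1138 in the main fit. The part of T and NK cell content in the Ly6 changes was not tested.

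Neutrophil (18 tested), endothelial (17), keratinocyte and hair follicle (20), B and plasma cell (11) and skeletal muscle (15) lists held no marker that passed the limma test in either direction. Of the B and plasma cell markers, 10 were above the control level on no array. The neutrophil list gave its lowest p for Hdc, with a log2 difference of 1.37 ± 0.38 (SE, limma adjusted p = 0.0625), and for the granulocyte growth factor receptor gene Csf3r, with 1.39 ± 0.40 (SE, limma adjusted p = 0.0664). Without BO-112 mouse 4, 7 neutrophil markers rose, in a fit that called 3134 probe sets in both directions together, against 1138 with every mouse. In the endothelial list the lowest p belonged to Erg (limma adjusted p = 0.0703) and Emcn. Emcn had a log2 difference of 0.83 ± 0.24 (SE, limma adjusted p = 0.071). Erg was above the control level on 3 BO-112 arrays and on no Vehicle array, so the size of its difference is uncertain. The mean level of the endothelial list was highest in BO-112 mouse 5 (7.71), lowest of the treated tumors in BO-112 mouse 4 (7.01) and lowest of all in Vehicle mouse 5 (6.71). In the B cell list the lowest p belonged to Pax5 (limma adjusted p = 0.0679) and Tnfrsf17, neither of which was above the control level on any array. In the muscle list it belonged to Actn3 and Mylpf, with log2 differences of 0.45 ± 0.34 and 1.20 ± 1.17 (SE). Of 14 fibroblast and mesenchymal markers Fbln1 alone passed, and fell by 0.85 (SE 0.22, limma adjusted p = 0.0456). BO-112 mouse 5 was the highest and BO-112 mouse 4 the lowest of the treated tumors also for the fibroblast list (9.22 and 7.26) and the skeletal muscle list (10.56 and 6.08), and Vehicle mouse 5 was the lowest Vehicle tumor for both (6.58 and 6.25). The part of these cell types in the Ly6 changes was not tested.

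Melanocyte lineage markers, which name the tumor line, were bright, with a list mean between 10.09 and 11.12 in BO-112 and between 11.09 and 11.26 in Vehicle tumors. Here BO-112 mouse 5 was the lowest and BO-112 mouse 4 the highest of the treated tumors. Vehicle mouse 5 was the lowest Vehicle tumor. Of 14 tested, 2 fell and 1 rose (limma). The endothelin receptor gene Ednrb was lower in BO-112 tumors, at 6.10 ± 0.42 against 8.10 ± 0.94 (SD, n = 5 per group, limma adjusted p = 0.0193), and Oca2 fell by 1.18 (limma adjusted p = 0.0444). Kit rose (limma adjusted p = 0.0498), by 1.26-fold with Vehicle values set to the control level.

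Ly6d was read beside the keratinocyte list, whose mean level was 9.29 in BO-112 mouse 2 and between 5.46 and 7.21 in the other BO-112 tumors. In Vehicle tumors it lay between 5.45 and 7.59. Mice 2, 3, 1, 5 and 4 of the BO-112 group stood in that order, from high to low, both for Ly6d and for the keratinocyte list. In the Vehicle group mouse 1 was highest and mouse 4 lowest for both. No marker of that list passed the limma test, and those of lowest p, Krtdap and Pkp1, differed by 0.91 ± 0.86 and 0.61 ± 0.61 (SE). The part of skin in the Ly6d values was not tested.

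The rest of the cluster and family was then examined. From the 5 genes before Ly6d to the 5 after Ly6f the reference gene table (GRCm38.p6) lists 38 genes, 30 of them no members, and 10 of these had a named tested probe set. None of the 10 passed the limma test, and 1 had an unadjusted p under 0.05, with log2 differences between -0.27 and 0.41. That gene, 9030619P08Rik, a transcribed pseudogene beyond Ly6f, differed by 0.41 ± 0.14 (SE, limma adjusted p = 0.108) and was named after its value was seen. Among tested genes, Ly6e, Ly6i, Ly6a, Ly6c1, Ly6c2 and Ly6f stand next to each other on the chromosome, and the tested genes between Ly6d and Ly6e, including Ly6k, Gml and Ly6m, had log2 differences of at most 0.20. Ly6g, which encodes the neutrophil antigen Ly-6G, was not analysed here.

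**Figure D4:**
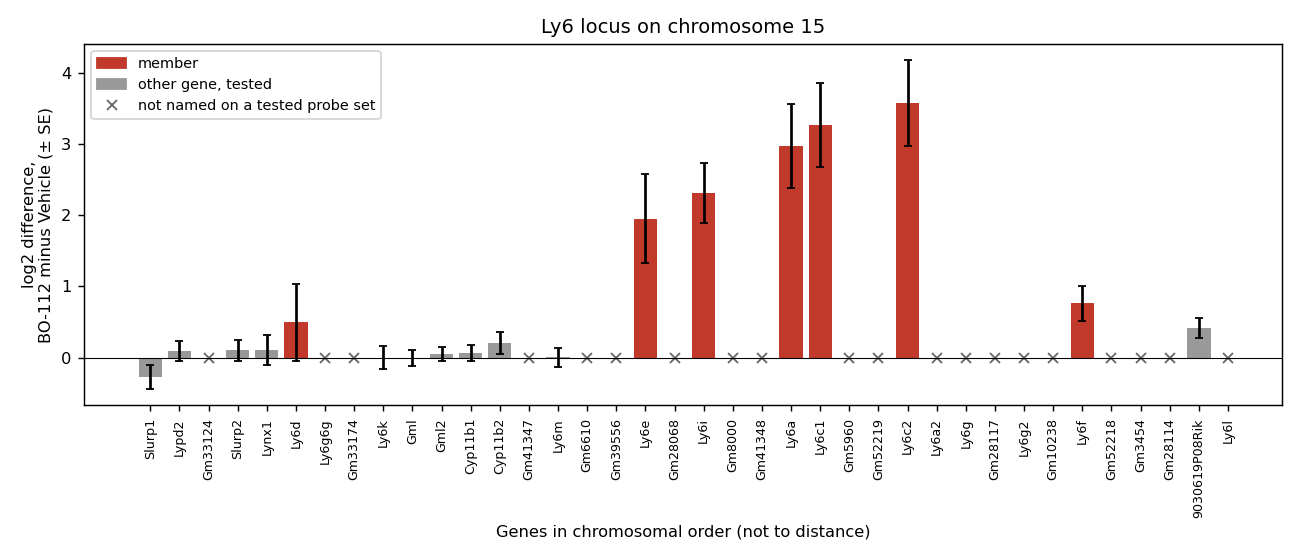
Log2 difference (BO-112 minus Vehicle, with SE bars) of tested genes of the Ly6 cluster in chromosomal order, with members in red, other tested genes in grey and crosses for genes not named on a tested probe set. The bars run from Ly6e (1.95) up to Ly6c2 (3.57), with Ly6f at 0.76, Ly6d at 0.49 and Ly6k at -0.002. The tested genes that are no members lie between -0.27 and 0.41.

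Outside the members, 31 genes of the LU-domain family were tested and none passed in either direction (limma), with a median log2 difference of 0.11. In these, 16 were above the control level on no array. The lowest p belonged to Plaur, the urokinase receptor, and to Psca, with log2 differences of 0.88 ± 0.23 and 0.51 ± 0.14 (SE, both limma adjusted p = 0.0516). Psca was not above the control level on any array. Without BO-112 mouse 4, 4 genes of the family rose. That fit called 3134 probe sets in both directions together, against 1138 with every mouse. How many of the 3134 rose is not given here, so the 4 genes cannot be set against a share. Of 26 genes that build, attach or remodel the GPI anchor, none rose and 1 fell, with a median of -0.13. Pgap1, an inositol deacylase that remodels the anchor after attachment, fell by 1.11 (SE 0.20, limma adjusted p = 0.0134), from 8.30 ± 0.20 (SD, n = 5) in Vehicle to 7.19 ± 0.45 (SD, n = 5) in BO-112 tumors.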

How the data were processed

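Whole B16OVA tumors of 5 BO-112 and 5 Vehicle mice were measured on Clariom S Mouse arrays. The authors normalized the arrays with RMA and deposited log2 expression values per probe set. RMA removes shifts shared by most transcripts and draws dim probe sets toward a floor. The RMA version was not stated in those sources.

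The table held 29129 probe sets, of which 6923 were controls. The study's filter, a value above 4 in at least 3 arrays of a group, was applied to 22206 transcript probe sets, 64 unmapped ones included, and kept 21792, so the tested set need not be the study's own. The platform annotation named 19239 of them. Probe sets were tested in R 4.3.3 by limma 3.58.1 (two-sided, lmFit then eBayes, without covariates), with Benjamini-Hochberg adjustment at 0.05, and in the text adjusted p-values without another name come from limma. Of several probe sets for 1 gene, that of highest mean was used. Pairs of members were compared by exact permutation over the 252 ways to choose 5 of 10 arrays. The control level is the 75th percentile of 5222 negative-control probe sets on an array, and contrast used these and 1324 positive controls. The number of arrays limits the precision.

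The members and lists were chosen with earlier results of these data known, so counts over a list are descriptions. Named genes were all members, up to 3 genes of each list of largest change among those that passed or the 2 of lowest p, and the 3 nearest genes of each member that passed. Exceptions are marked. The alternatives tried were array weights, a trended and robust variance model, median centring, further quantile normalization, a filter at a mean above 6 or none at all, a replicate block, each mouse left out, BO-112 mice 2 and 5 left out, array contrast as a covariate and the study's B-statistic above 0. Counting Ly6a was added after seeing the data. No member had another probe set to try, and protein sequences were not used here. Titles of the samples gave group and mouse number, and every array was used. The BO-112 against Vehicle fit was tested on simulated data with 21792 probe sets and recovered 77 of 100 log2 shifts of 1 and 98 of 100 log2 shifts of 2, while 13 unshifted probe sets were called. The simulated noise was normal, independent between probe sets and of equal SD in both groups, without outlying arrays. The recovery holds for that setting only.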

Additional observations from a re-analysis of the deposited data

Results flagged for a closer look

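Ly6e in Vehicle mouse 5 stood far from the other Vehicle tumors, at 7.57 against 10.53 to 11.53, a gap of 0.749 of the whole range of the group. The same comparison was made for 16 groups of values (8 members in both groups), and chance alone sets apart about 1 in 20. The difference of Ly6e between groups was 1.95 with that mouse and 1.30 without it, and missed the limma threshold either way. In the same tumor the monocyte and macrophage list (6.19) and the fibroblast and mesenchymal list (6.58) were at their lowest. So were the type I interferon list (6.98) and the interferon-gamma and NF-kB list (6.43). The neutrophil list (5.53) and the endothelial list (6.71) were lowest there too. Its array weight was 1.04, and its array contrast, 0.891, was the highest of the 10.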

How the results depend on the processing

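The calls of Ly6c1, Ly6c2 and Ly6i held in each leave-one-out fit (3 to 4 members called) and under the other filters and normalizations. None of them was called with array contrast as a covariate (0 members, and 27 probe sets in all), and taken singly by exact permutation 5 annotated members passed. The cause was not tested. The sample titles do not say whether mouse numbers pair the samples. Same-numbered mice deviated with correlations between -0.31 and 0.387, which cannot settle it. The fit with the number as a replicate block called 0 members and 102 probe sets.

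Probe sets at an adjusted p under 0.05 numbered 1138, 1726 with array weights, 475 at a B-statistic above 0 and 347 to 3134 in leave-one-out fits. The count was 446 without BO-112 mouse 1, 591 without mouse 2 and 3134 without mouse 4, and 347, 404, 371 and 380 without Vehicle mice 2, 3, 4 and 5. Differing pairs numbered 7 to 15 in leave-one-out tests. The sign of Ly6d turned without BO-112 mouse 2 (-0.081), without BO-112 mice 2 and 5 (-0.042) and with array contrast as a covariate (-0.57). It ranged from -0.081 to 0.82 with single mice left out. Ly6k ranged from -0.10 to 0.12 with single mice left out and was -0.14 without BO-112 mice 2 and 5, and was above 0 without BO-112 mouse 4 (0.12) and Vehicle mice 2 (0.02), 3 (0.02) and 5 (0.07). Ly6f passed with array weights (adjusted p = 0.0447). A mean above 6 moved the median of all probe sets to -0.10 and left Ly6k out. Signal near the negative controls limits Ly6i, Ly6f and Ly6k.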
